A study of Rattus norvegicus with 2 samples.

Results

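The genes described here encode 7 subunits of the GABA-A receptor: the alpha subunits Gabra2, Gabra3 and Gabra5, the beta subunits Gabrb1 and Gabrb2, the gamma subunit Gabrg1 and the delta subunit Gabrd. They were taken by symbol, with earlier results of these data known, from the 22777 genes with an mRNA transcript in the deposited tables, and all 7 were found. RNA came from the hypothalamus of female Sprague Dawley rats before puberty (postnatal day 25) and at puberty (first estrus, postnatal day 35). The labels name no treatment or transgene for either group. The labels give 3 hypothalami per stage. Each stage has a single column of values in the tables, taken here as 1 library. No difference between the stages therefore has a replicate check, and no test between stages was possible.

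GABA-A receptors are chloride channels that open when the transmitter GABA binds, and each channel is a pentamer of subunits drawn from several classes. Most synaptic receptors combine alpha and beta subunits with a gamma subunit, and the site for benzodiazepines lies between alpha and gamma. Receptors with a delta subunit lie mostly outside synapses, carry a steady inhibitory current and respond strongly to neurosteroids. GABA neurons act on the neurons that secrete gonadotropin-releasing hormone, the hormone that drives puberty, and in many brain regions the alpha subunits in use change during postnatal development.

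Expression was given as FPKM, the number of fragments mapped to a transcript, scaled to its length and to the total of the library. FPKM is scaled for length, so levels of different genes can be set side by side within a library. The number of fragments behind each value was recovered from the steps between low FPKM values. Single-transcript mRNAs of at least 1000 nt came out as whole fragments (within 0.05, up to 1000 fragments) for 92.8% of 9119 transcripts in the prepubertal library and 93.0% of 9776 in the pubertal library. The recovered scaling totals were 20800000 and 16200000 fragments. All 7 subunits came out within 0.01 of a whole number in both libraries, and they rested on 700 to 3353 fragments each. Intervals below are exact 95% intervals on these fragments. They cover counting error only and not the spread between rats. Each stage column had 1 step size, and how the 3 hypothalami were combined is not given in the sources used here.

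The beta subunit Gabrb2 (ENSRNOG00000003680) and the gamma subunit Gabrg1 (ENSRNOG00000002360) were the most abundant of the 7, each above 100 FPKM in both libraries. Gabrb2 stood at 127 FPKM before puberty (Poisson interval 122 to 131) and at 112 FPKM at puberty (107 to 117). Gabrg1 stood at 109 FPKM (105 to 113) and then at 127 FPKM (122 to 131). The order of these genes was therefore exchanged between the libraries, and in each library their counting intervals did not overlap. These intervals do not cover unequal measurement of different genes, and the listed transcripts were 1425 nt for Gabrb2 and 1736 nt for Gabrg1. Among the 13804 genes with a mean of at least 1 FPKM over both libraries, Gabrb2 lay at percentile 93.5 before puberty and Gabrg1 at percentile 92.3.

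Next in order came Gabra2 (ENSRNOG00000002349) and Gabrb1 (ENSRNOG00000002327). Gabra2 had 57.8 FPKM before puberty (54.8 to 60.9) and 49.1 FPKM at puberty (46.0 to 52.4). Gabrb1 had 52.6 FPKM (50.3 to 55.1) and 52.8 FPKM (50.1 to 55.6). Gabra2 was the higher of the pair before puberty and Gabrb1 at puberty. Their intervals overlapped in both libraries, and the order within the pair was not tested. Gabra2 was the only one of the 7 with more than 1 listed transcript. Its values came from the transcript of 1398 nt, while the other, of 1401 nt, was listed at 0 in both libraries.

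The remaining alpha subunits and the delta subunit were lower and kept their order in both libraries. Gabra3 (ENSRNOG00000016845) had 36.3 FPKM before puberty (34.2 to 38.5) and 37.2 FPKM at puberty (34.8 to 39.7). Gabrd (ENSRNOG00000016385) had 30.0 FPKM (28.1 to 32.0) and 28.1 FPKM (26.0 to 30.2). Gabra5 (ENSRNOG00000010803), which encodes a subunit found largely in receptors outside synapses, was the lowest, with 21.0 FPKM (19.7 to 22.3) and 23.7 FPKM (22.2 to 25.3). Even this lowest subunit lay above the median of the 13804 genes, at percentiles 61.6 and 65.4.

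**Figure D1:**
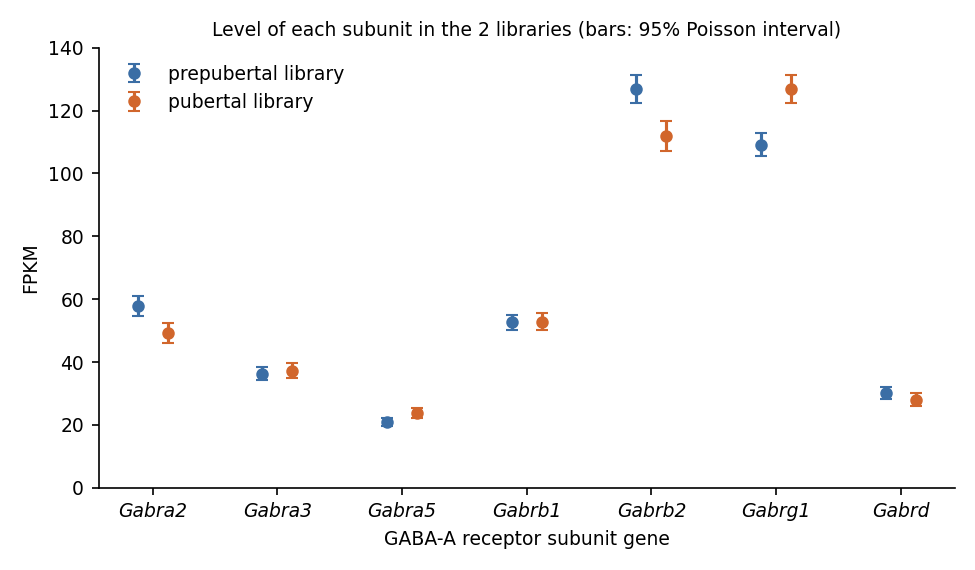
FPKM of the 7 subunit genes in the prepubertal and the pubertal library, 1 point per library, with exact Poisson 95% intervals on the recovered fragments. Gabrb2 and Gabrg1 sit between 109 and 127 FPKM and exchange their order, while the other subunits lie between 21.0 and 57.8 FPKM.

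The comparison of the stages addressed whether the RNA of these subunits differed between the prepubertal and the pubertal hypothalamus. Differences are given as log2 of (pubertal FPKM + 1) over (prepubertal FPKM + 1), so that a positive value stands for more at puberty. A log2 ratio of at least 0.32 in either direction, 25% more or 20% less in FPKM + 1, was reached by 0 of the 7 subunits, against 18.6% of the 13804 genes. Among the 4054 genes whose mean level lay within the range of the 7 subunits (22.3 to 119 FPKM), the share was 11.6%. With 3 subunits lower and 4 higher at puberty, the direction was divided much as among the 13804 genes, of which 51% were lower and 49% higher. The median log2 ratio of the 7 subunits was 0.00, against -0.01 for the 13804 genes and 0.02 for the genes of the same range. The median size of the difference, regardless of direction, was 0.17 for the subunits, 0.13 for the genes of the same range and 0.15 for the 13804 genes, so the subunits did not differ less than other genes by this measure.

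Gabra2, Gabrb2 and Gabrd were lower at puberty. The log2 ratio of Gabra2 was -0.23, from 1370 fragments before puberty and 913 at puberty, with a counting interval of -0.36 to -0.11 for the FPKM ratio without a pseudocount. For Gabrb2 it was -0.18, from 3076 and 2129 fragments (-0.26 to -0.10). For Gabrd it was -0.09, from 956 and 700 fragments, and the interval held 0 (-0.24 to 0.04). Fragment numbers are not scaled for the smaller total of the pubertal library, whereas FPKM is.

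Gabrg1 and Gabra5 were higher at puberty. The log2 ratio of Gabrg1 was 0.21, the highest among the 7, from 3353 fragments before puberty and 3051 at puberty (counting interval 0.14 to 0.29). For Gabra5 it was 0.17, from 1023 and 904 fragments (0.05 to 0.31). Gabra3 and Gabrb1 were the nearest to no difference. Gabra3 had a log2 ratio of 0.03 from 1153 and 925 fragments (-0.09 to 0.16). Gabrb1 had a log2 ratio of 0.00 from 1825 and 1433 fragments (-0.10 to 0.10), and its sign turned when the ratios were centred by transcript length (-0.02).

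The counting interval left out 0 for 4 of the 7 subunits, 2 below and 2 above. This was also the case for 57.5% of 2945 genes of the same range with 1 transcript of at least 1000 nt, so the share among the 7 subunits was near the background. Differences beyond counting error were common between the libraries, and without the spread between rats they cannot be assigned to the stage.

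**Figure D2:**
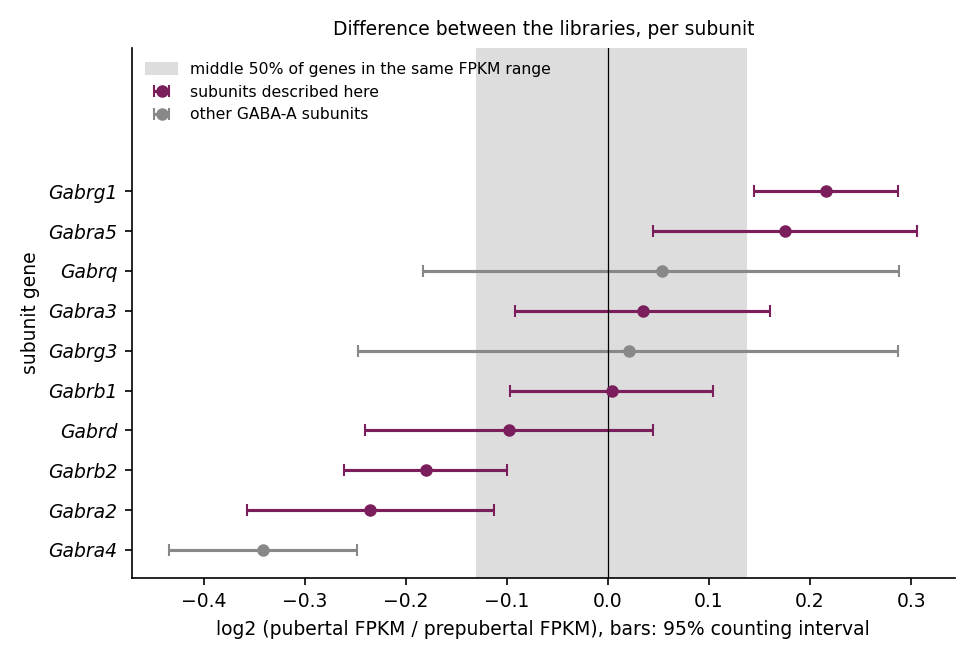
log2 ratio of pubertal to prepubertal FPKM for the 7 subunits (purple) and for Gabra4, Gabrg3 and Gabrq (grey), with 95% counting intervals. The grey band holds the middle 50% of the 4054 genes within the same FPKM range. Gabrg1 and Gabra2 lie furthest from 0 among the 7. Gabre, with 48 and 25 fragments, is not drawn.

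**Figure D3:**
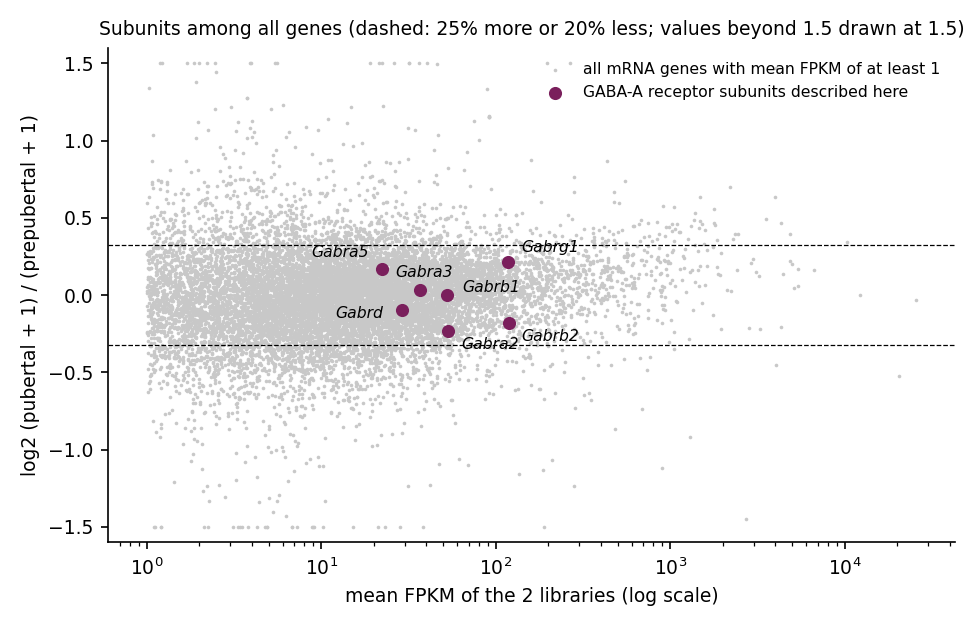
Each grey point is 1 of the 13804 mRNA genes, by its mean FPKM (log axis) and its log2 ratio between the libraries. The 7 subunits (purple) all lie between the dashed lines that mark log2 ratios of -0.32 and 0.32.

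A further 9 GABA-A and rho subunit genes were listed for comparison, and 4 of them had a mean of at least 1 FPKM. Gabra4, a partner of delta in forebrain and thalamus, went from 75.5 to 59.6 FPKM (log2 ratio -0.34), and Gabrg3 from 12.7 to 12.9 FPKM (0.02). Gabrq, the theta subunit, stood at 9.80 and 10.2 FPKM (0.05), and Gabre, the epsilon subunit, at 1.53 and 0.995 FPKM (-0.34). Gabra4 and Gabre were the 2 of these genes lower by at least 0.32 on the log2 scale, against 11% of the 13804 genes, and 0 were higher by that much, against 7.69%. With the libraries scaled to equal medians, 0 were lower by that much. Gabre rests on 48 and 25 fragments, and its counting interval held 0 (-1.38 to 0.11). It passed the mean of 1 FPKM only through its prepubertal value, so its count as lower is given as a description alone. The subunit Gabra6, typical of cerebellar granule cells, was near the floor with 3 and 2 fragments. Gabrp and the rho subunits Gabrr1, Gabrr2 and Gabrr3 had 1 to 9 fragments in each library.

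Summed over the 7 subunits, the level was 434 FPKM before puberty and 429 FPKM at puberty. Within these sums the parts shifted by a few percent of the total. The alpha subunits made up 26.5% before puberty and 25.6% at puberty, and the beta subunits 41.4% and 38.3%. Gabrg1, the gamma subunit, made up 25.2% and 29.5%, and Gabrd 6.92% and 6.53%. Among the 3 alpha subunits, Gabra2 held 50.2% of the alpha sum before puberty and 44.6% at puberty, Gabra3 31.5% and 33.8%, and Gabra5 18.2% and 21.5%. Gabra2 thus remained the most abundant of the 3 with a smaller share. These sums and shares are of the 7 subunits and not of the whole receptor family. Gabra4, which is not among the 7, stood above Gabra2 in both libraries (75.5 and 59.6 FPKM). RNA shares do not give the make-up of the assembled receptors, and genes whose listed transcript holds more or less of the untranslated regions may be measured unequally. The listed lengths of the 7 subunits ran from 1398 nt for Gabra2 to 2604 nt for Gabra5.

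**Figure D4:**
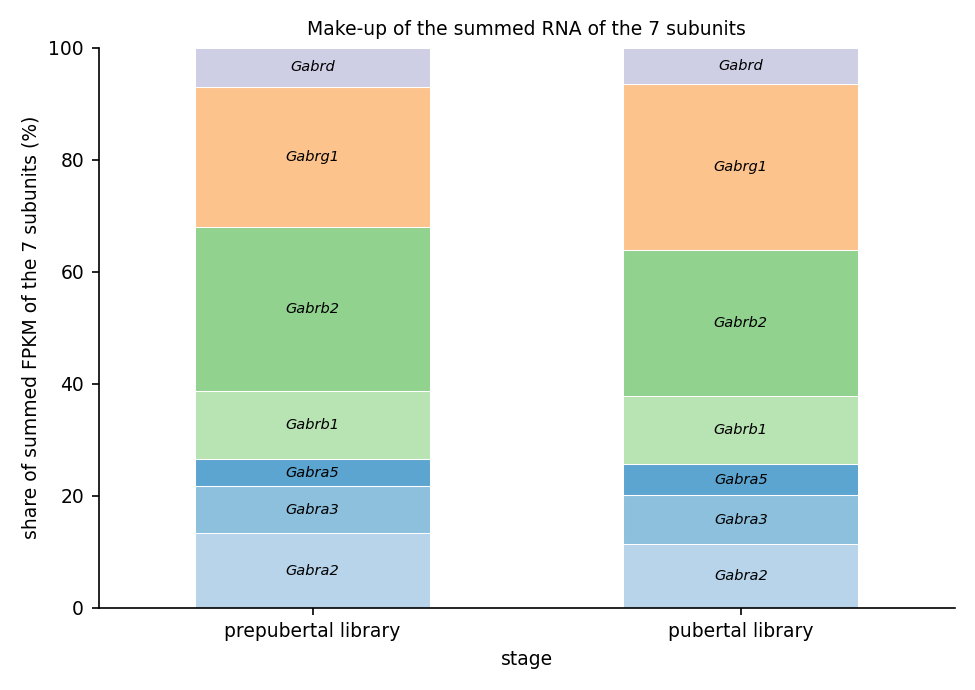
Share of each of the 7 subunits in their summed FPKM, in each library (blue alpha, green beta, orange gamma, purple delta). Gabrg1 takes 25.2% before puberty and 29.5% at puberty, and the beta subunits 41.4% and 38.3%.

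Ratios between subunits within a library do not depend on how the libraries are scaled. Each subunit was set against an abundant partner among the 7: Gabra3 and Gabra5 against Gabra2, Gabrb1 against Gabrb2, and Gabrd against Gabrg1. These partners were chosen after the values were seen, and they include the subunits with the lowest (Gabra2) and the highest (Gabrg1) stage ratio, so the directions are largely fixed by the choice and the ratios are given as a description. Gabra5 amounted to 0.363 of Gabra2 before puberty and 0.483 at puberty, a log2 difference of 0.41 (counting interval 0.23 to 0.59). Gabra3 amounted to 0.628 of Gabra2 and then to 0.757, a log2 difference of 0.27 (0.09 to 0.45). Gabrb1 amounted to 0.415 of Gabrb2 and then to 0.472, a log2 difference of 0.18 (0.05 to 0.31). Gabrd amounted to 0.275 of Gabrg1 and then to 0.221, a log2 difference of -0.31 (-0.47 to -0.15). The spread of these ratios between rats is unknown.

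Several subunit genes lie in clusters in the rat genome, and directions differed within the cluster that holds Gabrb1, Gabra2 and Gabrg1. All 7 subunits were matched by symbol in the RefSeq annotation of the GRCr8 assembly, which was used for neighbourhood alone, since the labels name Rnor_5.0 as the build of these data. In the order Gabrb1, Gabra4, Gabra2 and Gabrg1, with 1 other protein-coding gene between Gabra4 and Gabra2, the log2 ratios were 0.00, -0.34, -0.23 and 0.21. Gabra3 (0.03) lies between Gabre (-0.34) and Gabrq (0.05), with 1 other protein-coding gene on each side. Gabrd stands apart from the other subunit genes.

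Among the partners of the receptor, no listed gene with a mean of at least 1 FPKM was higher by 0.32 on the log2 scale in the lists for scaffold and trafficking, for GABA-B receptors and for GABA synthesis and transport, against 7.69% of the 13804 genes. Of 17 scaffold and trafficking genes, 3 were lower by at least 0.32, against 11% of the 13804 genes, and the median log2 ratio was -0.04. Gphn, the gephyrin scaffold of inhibitory synapses, went from 35.9 to 32.1 FPKM (-0.16). Slitrk3, an adhesion protein of inhibitory synapses, was the lowest in this list, from 10.3 to 7.47 FPKM (-0.41), and Hap1, which takes part in receptor transport, the highest, from 183 to 212 FPKM (0.21). Zdhhc3 was not matched by name. The GABA-B receptor subunits, which form a metabotropic receptor, were both lower, against 51% of the 13804 genes. Gabbr1 went from 317 to 267 FPKM (-0.25) and Gabbr2 from 58.6 to 47.2 FPKM (-0.31).

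Genes of GABA supply made up another list. Of 8 genes of GABA synthesis, transport and breakdown with a mean of at least 1 FPKM, 7 were lower, against 51% of the 13804 genes, with Abat, the enzyme that breaks down GABA, at -0.01. By at least 0.32, 2 of the 8 were lower, against 11%, and the median log2 ratio was -0.15. No test was made of this list. The largest difference was that of the transporter Slc6a13, a gene of meninges and blood vessels in the brain, which went from 8.72 to 3.71 FPKM (-1.04). The other was the astrocytic transporter Slc6a11, from 90.7 to 64.9 FPKM (-0.48). The synthesis enzyme Gad1 went from 85.4 to 74.6 FPKM (-0.19) and Gad2 from 106 to 108 FPKM (0.02). Of the chloride transporters that set the effect of GABA, the importer Slc12a2 was higher (68.7 and 83.5 FPKM, 0.28). The neuronal exporter Slc12a5 was lower (62.1 and 51.3 FPKM, -0.27). Neither reached 0.32 in size, which 18.6% of the 13804 genes did, and the cell types behind this RNA were not tested.

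Subunits of related ligand-gated channels were set beside the GABA-A subunits. The log2 ratios of the 7 GABA-A subunits ran from -0.23 to 0.21. Those of 7 nicotinic and 5-HT3 receptor subunits with a mean of at least 1 FPKM ran from -1.18 for Chrna3 (6.32 and 2.24 FPKM) to 0.73 for Chrna6 (3.25 and 6.03 FPKM). Chrna3 and Chrna6 rest on 61 to 220 fragments, fewer than any of the 7 GABA-A subunits, and whether the spread differs between the families was not tested. Of 3 glycine receptor subunits, Glra3 went from 9.98 to 7.68 FPKM (-0.34) and Glra1 from 6.45 to 6.96 FPKM (0.10). Glra2 was not matched by name. Among the listed genes with a mean of at least 1 FPKM, the log2 ratios nearest to the median of the 7 subunits were those of Slc1a3 (0.00), Elavl4 (0.00) and Eno2 (-0.01). With 1 ratio per gene this likeness says little.

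Markers of brain regions and cell types were compared between the libraries, without a test. Of 8 hypothalamic markers with a mean of at least 1 FPKM, 7 were higher at puberty, against 49% of the 13804 genes. Their log2 ratios ran from Oxt (0.74) down to Avp (-0.08). The sum of the 9 in this list went from 2659 to 4058 FPKM. Most of it came from Pmch (1675 and 2723 FPKM) and Oxt (411 and 686 FPKM). All 6 genes listed as thalamic markers were lower, against 51% of the 13804 genes, from Gbx2 (-0.71) to Slc17a6 (-0.13). Their sums were 382 and 325 FPKM, of which Slc17a6 alone held 206 and 188 FPKM. Whether the Slc17a6 RNA came from the thalamus was not tested. All 3 telencephalic markers with a mean of at least 1 FPKM were lower as well, against the same 51%, from Camk2a (-1.23) to Neurod6 (-0.86), and the sum of the 6 in this list went from 91.7 to 40.9 FPKM. The median log2 ratio was 0.34 for the hypothalamic, -0.40 for the thalamic and -0.98 for the telencephalic markers, against 0.00 for the 7 subunits. The part of these regional markers in the subunit differences was not tested. Fewer cells of a type and less RNA per cell cannot be told apart in such tissue.

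The medians of the cell type lists lay closer to 0 than those of the regional lists. Of 7 neuronal markers, 6 were lower, against 51% of the 13804 genes, from Rbfox3 (-0.48) to Map2 (0.13). The median of the list was -0.06, with sums of 1954 and 1845 FPKM. Among the 6, Elavl4 (-0.002) and Eno2 (-0.006) were near no difference, with counting intervals that held 0. Those of Rbfox3, Snap25, Syt1 and Stmn2 left out 0. Astrocyte markers had a median of -0.12, from Gja1 (-0.67) to Aldh1l1 (0.34), with sums of 1228 and 1072 FPKM. Oligodendrocyte markers had a median of -0.06, from Mag (-0.33) to Mobp (0.29), with sums of 11834 and 12827 FPKM. All 5 microglial markers were higher, against 49%, with a median of 0.18, from P2ry12 (0.11) to Aif1 (0.49), and sums of 113 and 141 FPKM. The counting intervals of Cx3cr1, Itgam and P2ry12 held 0, and those of Csf1r and Aif1 did not. Endothelial markers had a median of -0.16, from Cdh5 (-0.31) to Flt1 (0.13), with sums of 95.8 and 88.8 FPKM. No marker in these lists was at 0 in both libraries.

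**Figure D5:**
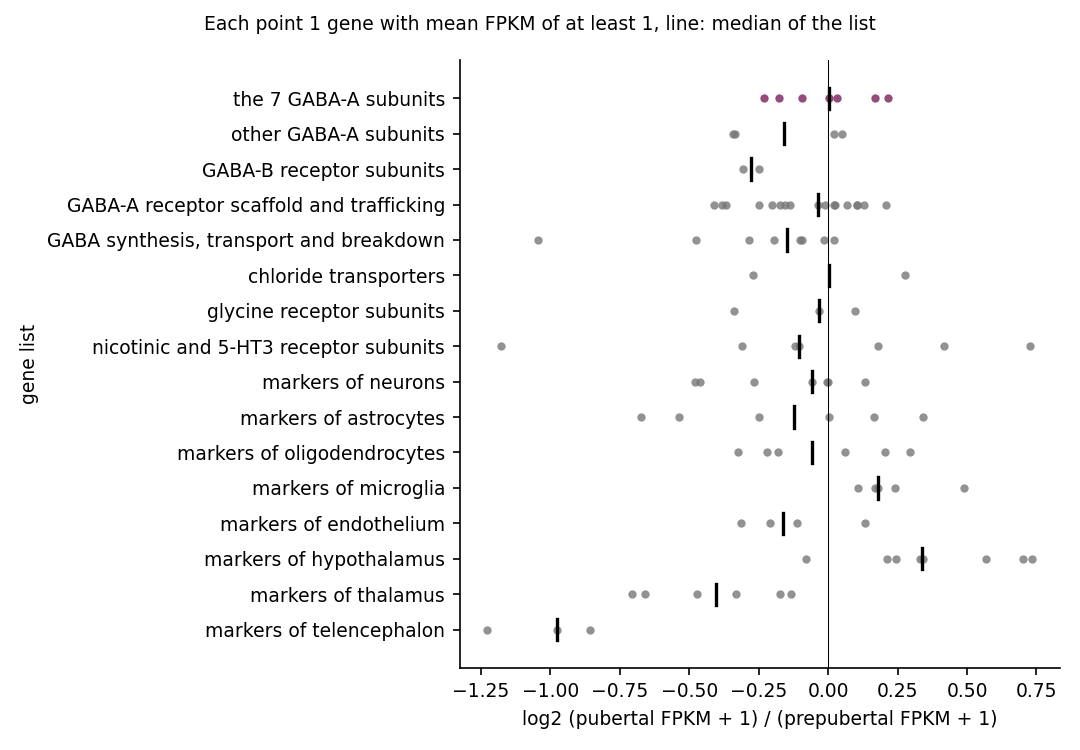
log2 ratio between the libraries for each gene with a mean of at least 1 FPKM, 1 row per gene list, with the list's median as a black line. The 7 GABA-A subunits (purple) lie within -0.23 to 0.21, telencephalic and thalamic markers below 0, and hypothalamic markers mostly above 0.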

How the data were processed

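Hypothalamic RNA of 2 stages was measured by RNA-seq, 1 column per stage. Per the labels and the methods, the authors depleted ribosomal RNA, kept strand information, aligned reads with TopHat, and deposited FPKM per transcript, estimated with Cuffdiff 2.1.1 after assembly with Cufflinks 2.1.1. The labels name the build Rnor_5.0, whereas the methods link an annotation of a later rat build. The authors' fold changes, p-values and q-values, deposited beside them, were not used. FPKM came from the mRNA table and transcript lengths from the comparison table, whose FPKM departed from it for 13 transcripts, 0 of them of the subunits.

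FPKM was summed per gene, and log2 ratios were taken with a pseudocount of 1. Background genes had a mean of at least 1 FPKM. Fragments were recovered by regressing FPKM times length on FPKM and whole fragment numbers. The lncRNA table gave whole fragments for 82.2% of 405 and 86.1% of 410 transcripts. Intervals were exact Poisson and Clopper-Pearson, and for ratios of ratios conditional odds ratio intervals. The steps were tested on simulated data.

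Genes of the lists were counted, and those named were the 7 subunits, further GABA-A subunits with a mean of at least 1 FPKM, the highest and lowest of each list, and a few synapse genes. Of 116 listed genes, 114 were matched by name. Some genes of the planned lists are not reported here. The subunits and lists were chosen with earlier results of these data known. Python 3.11.15, scipy 1.17.1, numpy 2.4.6, matplotlib 3.10.9 and pandas 2.3.3 were used.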

Additional observations from a re-analysis of the deposited data

How the results depend on the processing

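The settings tried were a pseudocount of 0.1, scaling to equal medians (pubertal FPKM multiplied by 1.04), the transcript with the highest mean FPKM, the FPKM of the comparison table, and ratios centred within 10 classes of transcript length. Under each, every subunit stayed within its counting interval, 0 of 7 reached 0.32 in size and 3 were lower, except that centring gave 4, as Gabrb1 went to -0.02. Gabra2 ranged from -0.28 to -0.18, Gabrb2 from -0.23 to -0.12, Gabrg1 from 0.19 to 0.27, Gabra5 from 0.17 to 0.22 and Gabrd from -0.12 to -0.04. The median ranged from -0.02 to 0.06, and from -0.05 to 0.02 when each subunit was left out in turn. Equal medians left 43% of the 13804 genes lower in place of 51%, and a pseudocount of 0.1 put 23.5% past 0.32 in place of 18.6%. Over the 18052 genes above 0 in either library, 51% were lower and 17.7% past 0.32.

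The class shares of the 7 subunits did not move with the transcript of the highest mean FPKM, and shares over further subunits are not reported here. List counts past 0.32 moved for some lists, and the cause was not tested. With a pseudocount of 0.1, 2 nicotinic and 5-HT3 subunits and 1 endothelial marker were lower, and 2 microglial and 6 hypothalamic markers higher. With equal medians, 0 of the 9 further GABA-A and rho subunits, 0 glycine receptor subunits, 0 oligodendrocyte markers and 3 thalamic markers were lower, and 1 chloride transporter and 1 oligodendrocyte marker were higher. No paired analysis was possible because each stage has 1 column. Leaving out a replicate could not be done for the same reason. With 700 fragments or more per subunit, depth sets the counting intervals given, and the spread between rats is unknown.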
